A study of Canis lupus familiaris with 28 samples.

Results

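The transcripts described here differed from wild type with an shRNA against p190A, in confluent and sub-confluent cells. With an shRNA against p190B they hardly differed in confluent cells, the only density at which the rule set that limit. They were counted in TR-T10, a dog cell line with a tetracycline repressor that controls the introduced constructs. Of 29884 Ensembl dog transcripts, 85 met the rule, 28 with a higher and 57 with a lower level in the p190A line. The members were selected on measured levels, those of the 10 libraries of wild-type, p190A and p190B cells that the conditions below name. Levels are in CPM, a transcript's share of a library's transcript counts scaled to a common total, and L stands for log2(group mean CPM + 1). A member had an L at least 1 away from confluent wild type in the confluent p190A line, and less than 0.3 away in the confluent p190B line. In sub-confluent cells its p190A difference had to have the same sign and a size of at least 0.5. The 28 are called the raised members and the 57 the lowered members.

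Experiment 1 held 8 groups of 2 libraries. Wild-type cells and cells with an inducible shRNA against p190A, against p190B or against both were each harvested confluent and sub-confluent. In experiment 2 all cells were confluent, with 3 samples each of wild type, both shRNAs (the double knockdown), both shRNAs plus YAP5SA+S94A, and a group labelled YAP5SA. In that last group, 2 of the samples held identical values and were counted as 1, which left 27 distinct libraries with 10706716 to 17215544 transcript counts. Labels disagree on whether the YAP5SA samples also carried the shRNAs, so they are called the libraries labelled YAP5SA. Knockdown was induced with 4 µg/ml doxycycline for 3 days before replating for 3 to 5 days. The labels do not say whether wild-type cells received it. Cells with the p190A shRNA were selected in hygromycin and those with the p190B shRNA in puromycin, and the YAP constructs were selected with G418. The double knockdown line was made from the p190B line by adding the p190A shRNA. Each group with the p190A shRNA therefore also went through hygromycin, and effects of the shRNA and of that selection cannot be told apart. Nothing in the labels says that the replicates were separate cultures, and the p-values therefore rest on differences among these samples that may be technical.

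The proteins p190A (ARHGAP35) and p190B (ARHGAP5) are closely related GTPase-activating proteins. The coactivator YAP is known to be nuclear in sparse, spread cells, where it drives growth genes through TEAD transcription factors. In crowded epithelial cells the LATS kinases phosphorylate YAP and hold it in the cytoplasm. YAP5SA lacks the serines that LATS phosphorylates, and the S94A change removes binding to TEAD. Gene names do not accompany the transcript identifiers in the files, and 0 of the 29884 identifiers matched the reference table of 43286 dog genes. No gene can be named, the depletion of ARHGAP35 and ARHGAP5 could not be checked, and epithelial and other marker genes could not be checked. Members are described by their levels, and 4 of them by identifier.

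The rule selected a small share of the transcripts that differed in the p190A line. At confluence, 146 transcripts had an L at least 1 above wild type and 366 at least 1 below. Of these, 131 and 283 also met the sub-confluent condition. Among the 131, 92 were at least 0.3 higher in the p190B line too, 11 were at least 0.3 lower there, and 28 lay within the limit. Among the 283, 204 were at least 0.3 lower with the p190B shRNA, 22 were at least 0.3 higher, and 57 lay within the limit. The member nearest the p190B limit had a difference of 0.284 among the raised and 0.295 among the lowered, with the nearest excluded transcripts at 0.309 and 0.301. At the confluent p190A limit, the nearest members had 1.005 (raised) and 1.001 (lowered), and the nearest excluded transcripts 0.988 and 0.994. At the sub-confluent limit the nearest members had 0.510 and 0.514, and the nearest excluded ones 0.241 and 0.440. Membership was sensitive to single libraries. When each of the 10 libraries that the rule uses was left out in turn, 8 of the 28 raised and 20 of the 57 lowered members met the rule every time. The sub-confluent p190A pair differed most, with a median absolute difference between its replicates of 0.463 (log2 scale) over the raised and 0.402 over the lowered members, against 0.246 over the 11700 transcripts with a mean of at least 1 CPM in experiment 1.

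Members spanned a wide range of levels. The mean over experiment 1 ran from 0.265 to 2568 CPM among the raised members (median 16.8 CPM) and from 1.22 to 1182 CPM among the lowered ones (median 15.2 CPM). CPM is not corrected for transcript length, so it ranks reads and not molecules. In bulk RNA, fewer cells with a transcript and less of it per cell cannot be told apart. At confluence, the raised members had a median of 4.38 CPM in wild type, 16.5 with the p190A shRNA, 4.49 with the p190B shRNA and 17.9 with both. In sub-confluent cells these medians were 8.96, 21.2, 9.93 and 23.8 CPM. Medians over members hide how single raised members moved: the median difference in L between double knockdown and p190A line was -0.73 at confluence and -0.96 in sub-confluent cells, and the sub-confluent double knockdown differed from wild type by a median of 0.08, with 15 members above wild type and 13 below. The lowered members had confluent medians of 26.5 CPM in wild type, 6.98 with the p190A shRNA, 25.7 with the p190B shRNA and 6.94 with both. Their sub-confluent medians were 12.7, 5.04, 14.9 and 5.72 CPM. In all 28 raised and 57 lowered members the confluent p190A and wild-type libraries did not overlap, where 60.4% of the 11700 transcripts did not. At sub-confluence 25 of 28 and 56 of 57 did not overlap (46.1% of the 11700). Both counts rest on contrasts that the rule used and are given as a description.

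**Figure D1:**
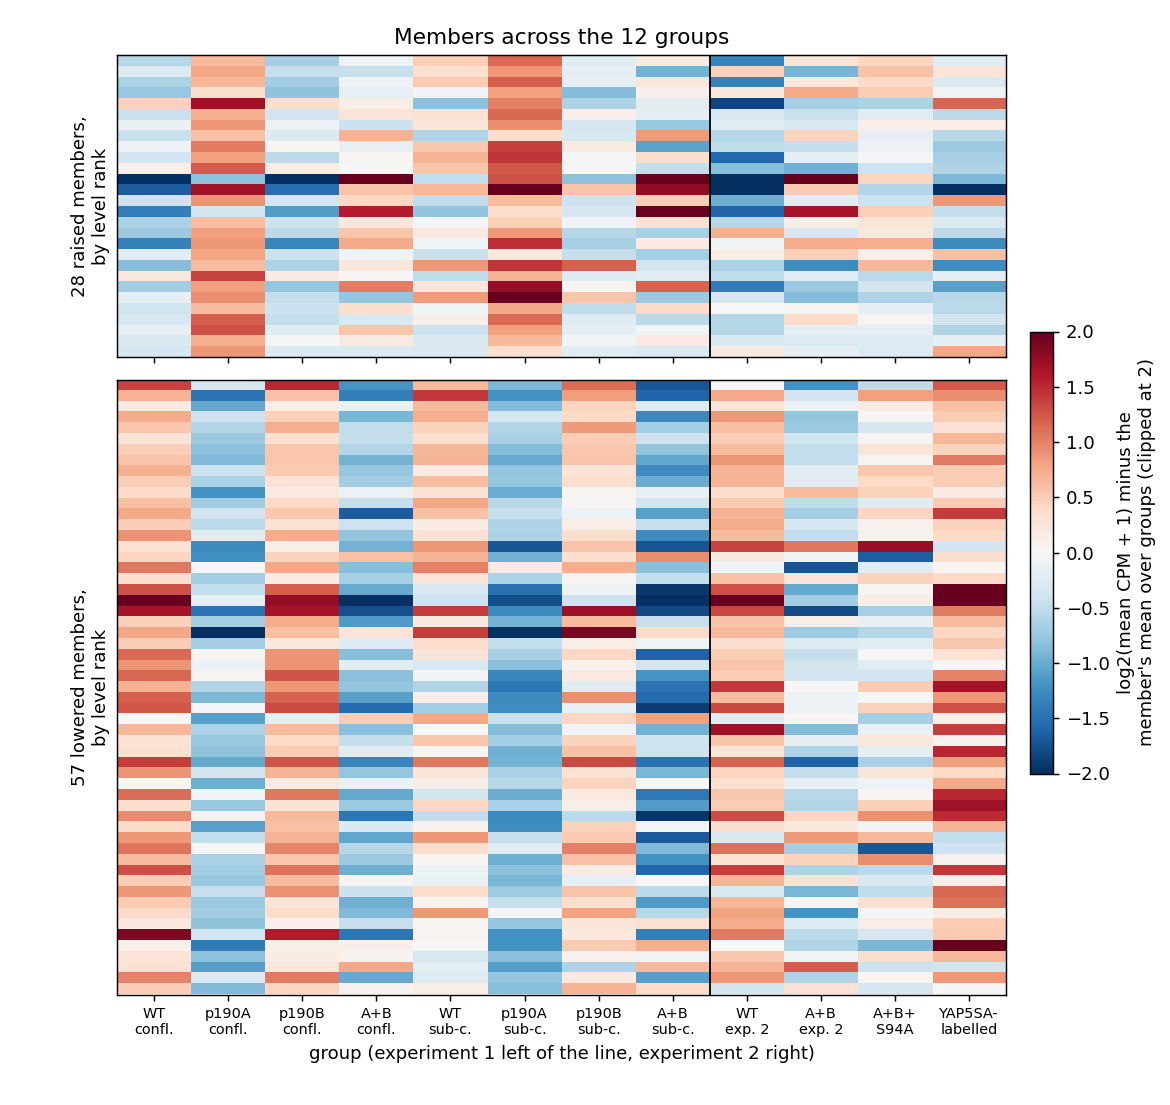
Each row is a member and each column a group, with colour for L minus the member's mean L over the 12 groups (red higher, blue lower, clipped at 2). The 57 lowered members are mostly blue with the p190A shRNA and in the double knockdown columns, and the libraries labelled YAP5SA in the last column are mostly red, while the 28 raised members are mostly red with the p190A shRNA and mixed elsewhere.

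The lowered members are led by transcript ENSCAFT00000022293 and transcript ENSCAFT00000006727, which had the widest differences at both densities among members with a mean of at least 5 CPM and separate libraries. At confluence, ENSCAFT00000006727 stood at 37.8 and 46.0 CPM in the wild-type libraries, 4.03 and 3.85 CPM with the p190A shRNA, 40.2 and 43.5 CPM with the p190B shRNA, and 3.21 and 2.86 CPM in the double knockdown. In sub-confluent cells it stood at 36.8 and 33.5 CPM in wild type, 5.97 and 3.30 CPM with the p190A shRNA, 43.5 and 43.8 CPM with the p190B shRNA, and 2.78 and 3.02 CPM with both. Every library with the p190A shRNA was thus below every library without it, at either density. In experiment 2 its wild-type libraries held 33.7, 33.4 and 33.8 CPM and its double knockdown libraries 2.98, 2.40 and 3.49 CPM. With YAP5SA+S94A added it held 6.69, 8.10 and 8.04 CPM, and in the libraries labelled YAP5SA 28.7 and 25.7 CPM.

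ENSCAFT00000022293 had the widest gap in the p190A line but not in the double knockdown. Its confluent levels were 25.6 and 19.5 CPM in wild type, 0.870 and 0.855 CPM with the p190A shRNA, 21.2 and 18.6 CPM with the p190B shRNA, and 17.1 and 13.8 CPM with both. Its sub-confluent levels were 31.0 and 39.0 CPM in wild type, 1.46 and 2.68 CPM with the p190A shRNA, 55.2 and 44.4 CPM with the p190B shRNA, and 17.5 and 16.3 CPM with both. In experiment 2 it held 18.8, 20.9 and 22.2 CPM in wild type and 8.04, 7.88 and 6.49 CPM in the double knockdown. The p190A line thus stood alone at 2.68 CPM or less, and the double knockdown lay between it and wild type at both densities. With YAP5SA+S94A it held 8.45, 8.03 and 8.36 CPM, and in the libraries labelled YAP5SA 19.1 and 15.8 CPM.

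The raised members are led by transcript ENSCAFT00000047744 and transcript ENSCAFT00000048134. At confluence, ENSCAFT00000047744 held 2.24 and 1.41 CPM in wild type, 23.6 and 32.7 CPM with the p190A shRNA, 2.31 and 1.96 CPM with the p190B shRNA, and 8.88 and 15.8 CPM with both. In sub-confluent cells it held 7.37 and 19.2 CPM in wild type, 31.8 and 115 CPM with the p190A shRNA, 13.8 and 10.8 CPM with the p190B shRNA, and 23.2 and 36.0 CPM with both. Its confluent double knockdown libraries thus lay between those of wild type and those of the p190A line. In experiment 2 it held 0.595, 0.379 and 0.373 CPM in wild type, 13.3, 11.3 and 11.3 CPM in the double knockdown, 5.49, 5.07 and 4.30 CPM with YAP5SA+S94A, and 0.563 and 0.702 CPM in the libraries labelled YAP5SA.

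ENSCAFT00000048134 held 1.21 and 1.02 CPM in confluent wild type, 9.80 and 7.87 CPM with the p190A shRNA, 0.908 and 1.49 CPM with the p190B shRNA, and 9.78 and 6.43 CPM with both. In sub-confluent cells it held 5.90 and 2.51 CPM in wild type, 12.3 and 15.8 CPM with the p190A shRNA, 1.60 and 3.19 CPM with the p190B shRNA, and 7.22 and 2.96 CPM with both. The sub-confluent double knockdown libraries therefore overlapped those of wild type. In experiment 2 it held 3.63, 4.32 and 4.25 CPM in wild type, 7.03, 7.66 and 9.36 CPM in the double knockdown, 8.17, 7.77 and 7.96 CPM with YAP5SA+S94A, and 1.05 and 1.47 CPM in the libraries labelled YAP5SA.

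**Figure D2:**
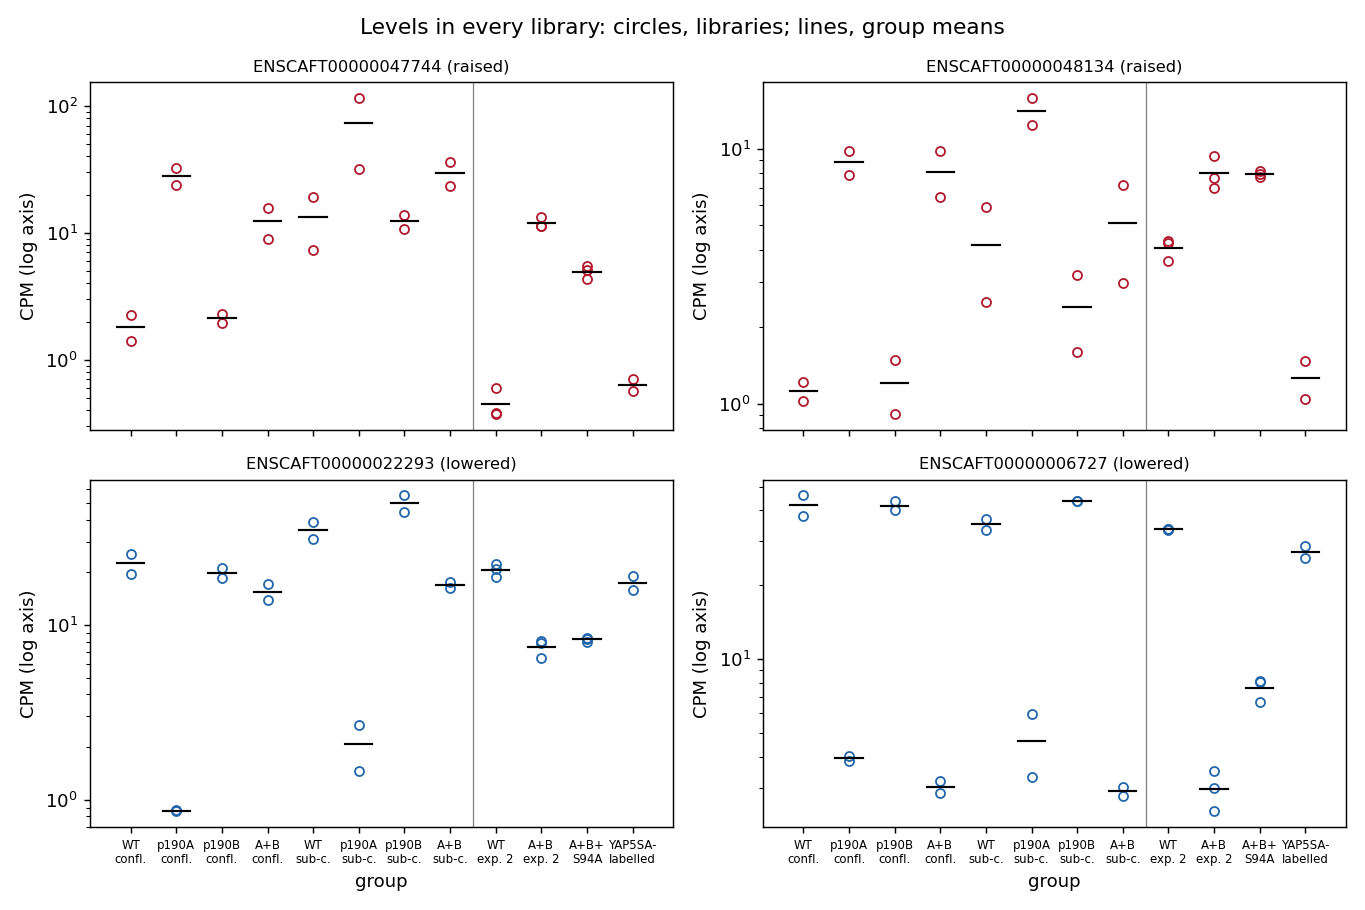
Levels of the 4 transcripts in every library, in CPM on a log axis, with circles for libraries and lines for group means (experiment 1 left of the grey line). ENSCAFT00000006727 is low in each group with the p190A shRNA, while ENSCAFT00000022293 is lowest in the 2 groups with the p190A shRNA alone.

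Several groups of libraries played no part in the choice of members, which allowed tests. In experiment 1 the filter on low counts and the estimate of the spread still used all 16 libraries, those of the rule among them. Sub-confluent double knockdown cells were compared with sub-confluent p190B cells in experiment 1, which asks what the p190A shRNA does when it is added to the p190B line. Of the 57 lowered members, 44 were lower in the double knockdown and 2 higher (edgeR quasi-likelihood, adjusted p under 0.05, n = 2 per group), where 16.3% of the 12845 transcripts tested were called lower, 15.3% higher and 31.6% either way. The lowered members had a median log2 fold change of -1.57 against 0.00 over all transcripts tested, and 38 were called at least 2-fold lower. The share of all transcripts at that 2-fold cut was not counted, so the 38 cannot be set against it. Transcript ENSCAFT00000006727 fell by 3.94 on the log2 scale (SE 0.21, adjusted p = 1.3e-07) and transcript ENSCAFT00000022293 fell by 1.60 (SE 0.21, adjusted p = 1.1e-04). Leaving out 1 library at a time left 39 to 46 lowered members called lower.

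The raised members went both ways in the same comparison. Of 28, 10 were higher in the sub-confluent double knockdown, 4 were lower and 14 were not called, with a median log2 fold change of 0.35. Of the 12845 transcripts tested, 15.3% were called higher and 16.3% lower, so the 4 lower calls are near the general share. The 14 include the raised members with means of 0.433 and 0.265 CPM over experiment 1. These passed the filter on low counts only through libraries with the p190A shRNA alone, which the rule used. Their lack of a call is therefore a description. Transcripts ENSCAFT00000047744 and ENSCAFT00000048134 were not called, the first at 1.23 on the log2 scale (SE 0.52, adjusted p = 0.087) and the second at 1.02 (SE 0.47, adjusted p = 0.12). For the first, 3 of 10 alternative fits made the call (adjusted p 7.5e-10 to 0.41), and for the second 2 of 10 (adjusted p 0.0034 to 0.72). The 10 higher calls became 6 without either double knockdown replicate or without p190B replicate 1, and 5 without p190B replicate 2. The 4 lower calls became 7 without double knockdown replicate 1, and the 2 lowered members called higher became 0 without it and 1 without each of the other 3 libraries.

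Confluent double knockdown and wild-type cells of experiment 2 gave a further comparison, with libraries separate from those of the rule. It takes both shRNAs and their selections together and does not isolate the p190A shRNA. All 57 lowered members were tested, and 50 were lower in the double knockdown and 5 higher, where 35.1% of the 13061 transcripts tested were called lower, 35.2% higher and 70.3% either way (edgeR, n = 3 per group). Their median log2 fold change was -0.94 (0.00 over all transcripts tested), and 26 were called at least 2-fold lower. Here too the share of all transcripts at the 2-fold cut was not counted, so the 26 cannot be set against it. ENSCAFT00000006727 fell by 3.42 (SE 0.10, adjusted p = 2.5e-36) and ENSCAFT00000022293 fell by 1.395 (SE 0.10, adjusted p = 2.1e-19). Of the raised members, 25 passed the filter on low counts, and 15 of the 28 were called higher and 4 lower, with a median of 0.85 over the 25. ENSCAFT00000047744 rose by 4.76 (SE 0.20, adjusted p = 3.2e-29) and ENSCAFT00000048134 by 1.05 (SE 0.14, adjusted p = 1.0e-09). The first held only 0.595, 0.379 and 0.373 CPM in wild type and passed the filter through groups where it was higher. Its fold change therefore rests on few wild-type reads. Among the 15 higher calls, raised members with wild-type means of 0.357 and 0.072 CPM also passed only through groups where they were higher. Among the 4 lower calls, a member at 0.430 CPM in wild type and 0.116 CPM in the double knockdown passed only through the libraries labelled YAP5SA. All of these calls are a description.

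These comparisons share no library, so their calls can be set side by side. They are unlike in design: the sub-confluent one adds the p190A shRNA to the p190B line. The confluent one of experiment 2 adds both shRNAs to wild type, so calls in both do not repeat a single contrast. Of the 57 lowered members, 42 were called lower in both, where 10.8% of the 12552 transcripts tested in both were. Another 7 were called lower in experiment 2 and not called in sub-confluent cells, and 1 was called lower in sub-confluent cells and not called in experiment 2. Of the 28 raised members, 9 were called higher in both (11% of the 12552) and 2 lower in both. The 9 include the member at 0.072 CPM in experiment 2 wild type, whose call there is a description. Calls are also given by level, with no test of the difference. The shares of all transcripts called at these levels were not counted, so the split cannot be read as a trait of the members. Among lowered members with a mean of at least 10 CPM, 27 of 32 were called lower in sub-confluent cells and 30 of 32 in experiment 2, and among those under 10 CPM 17 of 25 and 20 of 25. Among raised members with at least 10 CPM, 8 of 16 were called higher in sub-confluent cells and 11 of 16 in experiment 2, and among those under 10 CPM 2 of 12 and 4 of 12.

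**Figure D3:**
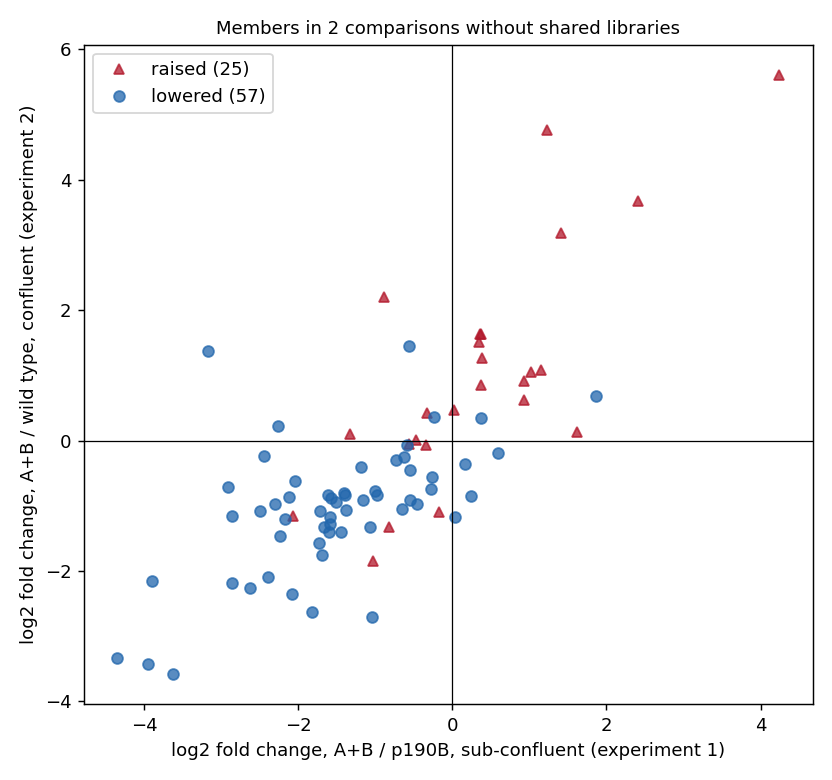
Each point is a member, with its log2 fold change in sub-confluent double knockdown against p190B cells (horizontal) and in confluent double knockdown against wild-type cells of experiment 2 (vertical). The 57 lowered members lie mostly in the lower left, where 42 were called lower in both. The 25 raised members tested in both spread over the upper right, the lower left and the upper left.

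Within experiment 1 the double knockdown can be set beside the p190A line, as a description, since the p190A and wild-type libraries served the rule. At confluence, 29 of 57 lowered members had an L in the double knockdown within 0.5 of the p190A line, 15 were at least 0.5 further below, and 13 were at least 0.5 nearer to wild type. In sub-confluent cells 27 lay within 0.5, 16 were further below and 14 nearer to wild type. Of the 28 raised members, 10 lay within 0.5 of the confluent p190A line, 16 were at least 0.5 nearer to wild type and 2 were at least 0.5 above it. In sub-confluent cells 5 lay within 0.5, 21 were nearer to wild type and 2 above. The p190B shRNA in sub-confluent cells was outside the rule, though its wild-type control was inside it. There, 30 of 57 lowered and 12 of 28 raised members had a difference under 0.3, where 7050 of the 11700 transcripts did. None of the members reached 1 in size. Of the 28 raised members, 9 were at least 0.5 below wild type and 0 at least 0.5 above it. Of the 57 lowered members, 8 were at least 0.5 above it and 3 at least 0.5 below it. Of the 11700 transcripts, 1171 were at least 0.5 above wild type and 1187 at least 0.5 below it.

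Some members, picked out here after their values were seen, show how raised members moved. The raised member with the most reads held 1510 and 1439 CPM in confluent wild type, 3514 and 3394 CPM with the p190A shRNA, 1204 and 1568 CPM with the p190B shRNA, and 2045 and 2037 CPM with both. In experiment 2 it held 875, 878 and 913 CPM in wild type, 2543, 2698 and 2627 CPM in the double knockdown, and 1867 and 1841 CPM in the libraries labelled YAP5SA. Its double knockdown libraries thus lay above wild type at confluence in both experiments. The raised member with the third most reads followed it in a nearly fixed proportion, with a ratio of 6.38 to 7.62 over the 27 libraries and Pearson's r = 0.996 over libraries that come from 12 groups and share each library's depth. Whether these transcripts share sequence is unknown here, so both values are uncertain if reads were divided between similar copies.

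The raised member with the second most reads went the other way in the confluent double knockdown. It held 770 and 683 CPM in confluent wild type, 1520 and 1439 CPM with the p190A shRNA, 579 and 679 CPM with the p190B shRNA, and 590 and 665 CPM with both. In experiment 2 it held 1200.2, 1227 and 1151 CPM in wild type and 446, 462 and 452 CPM in the double knockdown, where the fitted log2 difference was -1.33 (SE 0.03, adjusted p = 7.7e-42). With YAP5SA+S94A it held 1273, 1303 and 1278 CPM, above the wild-type libraries in all 3. A raised member of lower level was further from wild type with both shRNAs than with the p190A shRNA alone. It held 1.401 and 1.34 CPM in confluent wild type, 4.98 and 5.81 CPM with the p190A shRNA, 0.991 and 1.02 CPM with the p190B shRNA, and 90.3 and 63.9 CPM with both. In sub-confluent cells it held 3.85 and 10.3 CPM in wild type, 6.03 and 46.9 CPM with the p190A shRNA, 4.36 and 6.46 CPM with the p190B shRNA, and 78.1 and 131 CPM with both. The sub-confluent p190A and wild-type libraries overlapped, and the p190A difference there rests on replicate 2. In the sub-confluent double knockdown its log2 fold change over the p190B line was 4.24 (SE 0.70, adjusted p = 5.7e-04).

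Between densities in the double knockdown, calls at adjusted p under 0.05 were about as rare among members as among all transcripts. Confluent and sub-confluent double knockdown libraries, neither used by the rule, differed for 0 of the 28 raised and 1 of the 57 lowered members (edgeR, adjusted p under 0.05), the 1 being lower at confluence, where 1.81% of the 12845 transcripts tested were called, 0.911% higher and 0.895% lower. The 28 again include the raised members with means of 0.433 and 0.265 CPM, which passed the filter only through libraries with the p190A shRNA alone. At unadjusted p under 0.05 there were 7 raised and 13 lowered members. The shares of all transcripts at that threshold, and in the alternative fits that follow, were not counted. These counts therefore cannot be set against all transcripts. DESeq2 called 2 raised members and 4 lowered members higher at confluence and 1 lowered member lower. Without sub-confluent p190A replicate 2, 2 raised and 5 lowered members were called higher, without sub-confluent double knockdown replicate 1, 2 raised members were, and the 1 lower call was lost without either confluent double knockdown replicate or sub-confluent replicate 2. The median log2 fold change was 0.06 for the raised and 0.18 for the lowered members. In wild-type cells, whose libraries the rule used, the confluent L was at least 0.5 above the sub-confluent one for 23 of 57 lowered members and at least 0.5 below it for 4. For the raised members these counts were 2 and 16 of 28, and for the 11700 transcripts 2185 and 1261. In the double knockdown they were 8 and 4 for the lowered and 6 and 1 for the raised members, and 685 and 474 for the 11700, so the counts were also smaller over all transcripts. Whether the response to density differs between the lines was not tested.

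In double knockdown cells that also carried YAP5SA+S94A, 38 of 57 lowered members were higher than in the double knockdown and 8 lower, where 25.9% of the 13061 transcripts were called higher, 25.4% lower and 51.3% either way (edgeR, n = 3 per group). The median log2 fold change of the lowered members was 0.52. For 42 of 57 lowered and 9 of 28 raised members the mean lay between the double knockdown and wild type, a count not made over all transcripts. This comparison uses the same double knockdown libraries as the comparison with wild type and is not separate from it. ENSCAFT00000006727 rose by 1.36 (SE 0.14, adjusted p = 3.4e-12), while ENSCAFT00000022293 stood at 0.17 (SE 0.12, adjusted p = 0.23). The construct and its G418 selection cannot be told apart in this comparison. Among the 28 raised members there were 11 higher and 7 lower calls, and the median was 0.06. ENSCAFT00000047744 fell by 1.25 (SE 0.12, adjusted p = 1.7e-13), and ENSCAFT00000048134 stood at 0.01 (SE 0.12, adjusted p = 0.95).

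In the libraries labelled YAP5SA the lowered members lay on both sides of wild type. Against wild type, 23 of 57 were higher and 16 lower, where 29.7% and 26.9% of the 13061 transcripts were called, 56.6% in all (edgeR, n = 2 against 3). The median log2 fold change of 0.06 is over members that went both ways, and 30 of 57 had a difference in L under 0.3, where 6988 of the 11700 transcripts did. The group median of CPM was 25.3 against 20.6 in wild type and 10.2 in the double knockdown. Against the double knockdown, 47 were higher and 5 lower (32.3% and 31.3% of the 13061, 63.6% in all), with a median of 1.04. Of the 50 lowered members that fell in the double knockdown, 46 were higher in the libraries labelled YAP5SA than in the double knockdown, and against wild type 20 were called higher, 15 lower and 15 not called. Those 50 were picked for low values in the same double knockdown libraries, so these counts are a description. These comparisons share libraries with that of the double knockdown with wild type and are not separate results. Whether the shRNAs were present in these libraries cannot be read from the labels, so YAP5SA and absence of the shRNAs cannot be told apart as sources of the difference.

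Single members spread widely around that median. The lowered member with the most reads held 875, 830 and 845 CPM in experiment 2 wild type, 361, 367 and 364 CPM in the double knockdown, 591, 588 and 603 CPM with YAP5SA+S94A, and 2003 and 1958 CPM in the libraries labelled YAP5SA. In the libraries labelled YAP5SA it was above every other group of experiment 2, by 1.30 on the log2 scale relative to wild type (SE 0.03, adjusted p = 7.3e-40). ENSCAFT00000006727 was lower than wild type there, at -0.23 on the log2 scale (SE 0.08, adjusted p = 0.0083), a call lost with DESeq2 and without YAP5SA-labelled replicate 3 (adjusted p 0.0036 to 0.25 over 9 alternatives). ENSCAFT00000022293 was not called, with -0.17 (SE 0.09, adjusted p = 0.12), though it was called without wild-type replicate 1 or YAP5SA-labelled replicate 1 (adjusted p 0.021 to 0.90 over 9 alternatives).

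For the raised members, calls in the libraries labelled YAP5SA went both ways. Relative to wild type, 13 of 28 were called higher and 7 called lower, beside 29.7% and 26.9% of the 13061 transcripts, and the median log2 fold change was 0.53. The 7 lower calls became 4 without either YAP5SA-labelled library. Relative to the double knockdown there were 6 higher and 13 lower calls, beside 32.3% and 31.3% of the 13061, and the median was -0.45. The higher calls of both comparisons include the raised member with the fewest reads. It passed the filter only through the libraries labelled YAP5SA, with 0.966 and 1.34 CPM there and 0.462, 0.455 and 0.373 CPM in wild type. Another higher call against wild type was of a member at 0.320 CPM there and 0.072 CPM in wild type. Calls of members that passed only through groups where they were higher are a description. Relative to the double knockdown, ENSCAFT00000047744 stood at -4.20 on the log2 scale (SE 0.22, adjusted p = 8.5e-25), and its change against wild type was 0.56 (SE 0.47, adjusted p = 0.31). ENSCAFT00000048134 was below wild type, at -1.57 (SE 0.24, adjusted p = 1.4e-07).

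**Figure D4:**
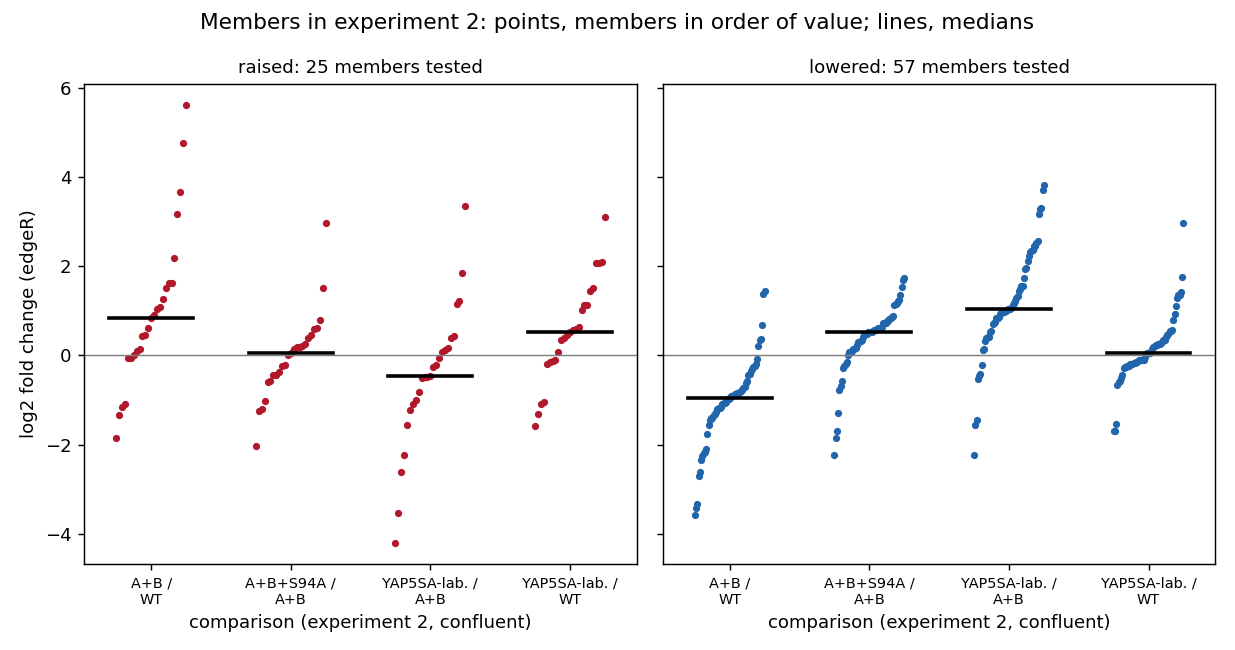
Log2 fold changes of the members in 4 comparisons of experiment 2, with a point per member in order of value and a line for the median (raised left, lowered right). For the lowered members the medians are -0.94 in the double knockdown, 0.52 with YAP5SA+S94A added, 1.04 in the libraries labelled YAP5SA against the double knockdown and 0.06 against wild type, and for the raised members 0.85, 0.06, -0.45 and 0.53.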

How the data were processed

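The authors deposited 1 table of whole-number read counts per sample, for 29884 transcripts and 5 summary rows that name none, and the counts were not normalized. STAR 2.3.1n, HTSeq 0.6.0, DESeq2 1.4.5 and the dog build CanFam3.1 appear in the submitters' processing notes, with no roles stated. Sequencing was single-read from TruSeq mRNA libraries, per the labels' protocols. Whether counting used strand was not given in the sources used here. The 5 summary rows entered neither the library sizes nor the tests. Of reads aligned to 1 place, 20.3% to 23.1% were in the row for ambiguous reads and 21.2% to 23.8% outside any transcript, so overlapping transcripts are measured from part of their reads. Alignments to several places made up 24.4% to 30.7% of all counted entries. A count of 0 allows up to 3 counts, or 0.174 to 0.280 CPM, by counting error alone. 

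CPM used plain transcript totals. Tests used edgeR 4.0.16 in R 4.3.3 (filterByExpr, TMM scaling, robust quasi-likelihood F-tests, Benjamini-Hochberg adjustment over all transcripts tested), with 1 fit of 8 group means over the 16 libraries of experiment 1 and 1 of 4 group means over the 11 distinct libraries of experiment 2. A call is an adjusted p under 0.05. The standard error was derived from the F statistic. Fits were tested on simulated data. No test was made on contrasts of the rule. Named transcripts were those with p190A and wild-type libraries apart at both densities and a mean of at least 5 CPM in experiment 1, ranked by the smaller of the 2 differences, with identifiers given for 2 in each direction. Gene lists and cell type markers need symbols and were not run. The members and lists were chosen with earlier results of these data known. The comparison of YAP5SA-labelled with double knockdown libraries was added after the data had been seen. Alternatives were DESeq2 1.42.0, RLE size factors, no filter on low counts, a fit of the compared groups only, a replicate block, each library left out in turn, and for the rule other pseudocounts and TMM-scaled CPM.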

Additional observations from a re-analysis of the deposited data

Results flagged for a closer look

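In the members listed here the double knockdown lay apart from wild type in opposite directions in the confluent libraries of the experiments, with every library of each experiment on the same side. How many of all transcripts did so was not counted, so nothing is read from the number of members listed. The difference between experiments was not tested, and the wild-type libraries of experiment 1 served the rule. Members are given by the rank of their read level within their direction. Raised member 6 had a difference in L of 0.73 in experiment 1 and -0.13 in experiment 2, raised member 17 had 1.28 and -1.03, and raised member 20 had 1.09 and -0.63. Lowered member 11 had -0.50 and 0.29, lowered member 43 had -1.91 and 1.13, and lowered member 57 had -0.41 and 0.66.

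In experiment 1, some raised members lay above wild type in the confluent and below it in the sub-confluent double knockdown in every library. This difference between densities was not tested either, and how many of all transcripts showed it was not counted. Raised member 1 had 0.47 at confluence and -0.30 in sub-confluent cells, raised member 3 had 0.55 and -0.30, and raised member 10 had 0.44 and -0.33. Raised member 6 had 0.73 and -0.49, raised member 17 had 1.28 and -0.82, and raised member 20 had 1.09 and -1.26.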

How the results depend on the processing

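Over the counts of members in each direction and comparison, and of members that met the rule, 241 of 270 values under alternatives were within 1.5 times the reported count and 29 were not. Of those 29, 17 were in the comparison of confluent with sub-confluent double knockdown cells. There, raised members called higher (0 as reported) were 5 with no filter, 2 under DESeq2, 3 under a replicate block within each density and 1 with the block crossed between densities, and raised members called lower were 1 with no filter. Lowered members called higher (0 as reported) were 9 with no filter, 4 with DESeq2, 5 with the block and 3 with the crossed block, and those called lower (1 as reported) were 3 with no filter and 0 in a fit of the compared groups. Without 1 library these counts ran from 0 to 2, 0 to 0, 0 to 5 and 0 to 1, the upper value of 5 being without sub-confluent p190A replicate 2, a library left out after the data had been seen. For sub-confluent double knockdown against p190B cells, lowered members called higher (2) were 1 in a fit of the compared groups, and without 1 library 0 to 2. Raised members called higher (10) were 5 to 11 and called lower (4) 3 to 7. For the libraries labelled YAP5SA against wild type, raised members called lower (7) were 4 to 8. The causes were not tested.

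The rule found 30 raised and 77 lowered members with a pseudocount of 0.5 (25 and 56 of them among those described), 21 and 44 with 2 (19 and 40 shared), 29 and 54 with TMM-scaled CPM (27 and 49 shared), and 21 to 31 and 47 to 63 without 1 library. Libraries that share a replicate number (experiment 1) or a title letter (experiment 2) shared only that label: r of their deviations was 0.227 between sub-confluent double knockdown and p190B cells, -0.279 between densities of the double knockdown, and -0.037 to 0.056 over 6 pairs in experiment 2, where 3 correlated best with their own letter. With the replicate block, 44 lowered members were lower in sub-confluent double knockdown cells and 50 in experiment 2, as reported. No such block was possible for the libraries labelled YAP5SA, whose titles all carry the letter C and so do not pair them with single libraries of other groups. Uncalled values near 0 changed sign without 1 library: between densities ENSCAFT00000006727 (0.04 as reported) ran from -0.059 to 0.14 and ENSCAFT00000022293 (-0.14) from -0.32 to 0.020, and with YAP5SA+S94A ENSCAFT00000048134 (0.01) ran from -0.090 to 0.15. With 2 libraries per group in experiment 1, a group reduced to 1 library is taken to have the spread of the rest. The 3 raised members not tested in experiment 2 had too few counts there.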
